A study of Mus musculus with 4 samples.

Results

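The liver makes most of the proteins that clot blood and most of the complement proteins of plasma, and 37 such genes are described here: 20 of coagulation and fibrinolysis and 17 of complement. They came from a list of 38 names, in which C5 and Hc are 1 mouse gene and C1s is listed on current annotation as C1s1, and each gene was found by the symbol that the array platform gives its probes. Of 19057 genes with a named probe on the array, 35 were on the list, with 65 probes. No probe was named for C3 or for Cpb2, so both are not analysed here, and the probe of Fgb was not detected on any array. The other 34 genes, 18 of coagulation and 16 of complement, had a detected probe on all 4 arrays.

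Liver RNA was compared between 2 adenoviruses in Med1 floxed mice (Med1fl/fl) on a C57BL6/J background, 5.5 weeks old when injected intravenously. Ad-Med1 carries Med1, a subunit of Mediator, the complex that links transcription factors to RNA polymerase II. Ad-LacZ carries bacterial beta-galactosidase and served as the control. The groups were Ad-Med1 at day 3, Ad-LacZ at day 3, Ad-Med1 at day 5 and Ad-LacZ at day 5 after injection, each with 1 Illumina array, so the difference between viruses at a day has no replicate check. All groups carried the floxed allele, no Cre recombinase is named in the labels, every control had received a virus, and no uninjected liver was analysed here. The labels say neither whether an array holds 1 animal or a pool nor the sex of the animals. The number of arrays limits the precision.

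Clotting runs as a cascade of serine proteases that the liver secretes as inactive zymogens. The contact system and the vitamin K-dependent factors end in thrombin, which turns fibrinogen into fibrin, while antithrombin, heparin cofactor II and protein C hold the cascade back and plasmin dissolves the clot. Complement is started by antibody, by lectins that bind microbial sugars or by slow turnover of C3, and ends in a pore of C5b, C6, C7, C8 and C9. Genes of both systems are read in hepatocytes under HNF4 and C/EBP factors, and several complement genes answer to inflammatory cytokines.

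Promoters of 2 pairs of neighbouring genes are printed because the neighbours can be compared directly. C8a and C8b, which encode 2 chains of C8, lie next to each other on chromosome 4 and differed in how far the viruses were apart. F7 and F10, adjacent on chromosome 8, were both lower in Ad-Med1 at day 3. Each sequence runs 5′ to 3′ on the gene's strand, from 250 bases before the RefSeq start to 50 after it, from RefSeq's GRCm38.p6. Capitals mark the letters CAAAGNNCA of an HNF4 motif, which F7 holds on its other strand. The windows are chr4:104766067-104766366 on the + strand for C8b, chr4:104876349-104876648 on the - strand for C8a, chr8:13025784-13026083 on the + strand for F7 and chr8:13037058-13037357 on the + strand for F10.
C8b: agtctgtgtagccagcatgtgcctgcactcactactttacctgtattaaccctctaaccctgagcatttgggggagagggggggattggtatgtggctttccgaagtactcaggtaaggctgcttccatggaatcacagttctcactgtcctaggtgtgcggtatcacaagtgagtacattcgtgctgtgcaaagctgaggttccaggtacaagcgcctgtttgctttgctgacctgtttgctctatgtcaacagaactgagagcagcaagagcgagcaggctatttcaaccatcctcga
C8a: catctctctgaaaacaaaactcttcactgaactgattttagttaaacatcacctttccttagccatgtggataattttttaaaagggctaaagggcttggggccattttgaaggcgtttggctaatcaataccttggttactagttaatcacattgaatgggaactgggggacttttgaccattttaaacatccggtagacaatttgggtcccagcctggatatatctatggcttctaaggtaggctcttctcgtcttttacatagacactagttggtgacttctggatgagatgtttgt
F7: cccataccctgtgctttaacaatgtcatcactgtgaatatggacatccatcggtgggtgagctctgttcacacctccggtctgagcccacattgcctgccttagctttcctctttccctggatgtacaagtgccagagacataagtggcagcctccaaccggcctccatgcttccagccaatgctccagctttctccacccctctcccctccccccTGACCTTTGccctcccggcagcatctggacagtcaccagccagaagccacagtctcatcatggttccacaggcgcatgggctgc
F10: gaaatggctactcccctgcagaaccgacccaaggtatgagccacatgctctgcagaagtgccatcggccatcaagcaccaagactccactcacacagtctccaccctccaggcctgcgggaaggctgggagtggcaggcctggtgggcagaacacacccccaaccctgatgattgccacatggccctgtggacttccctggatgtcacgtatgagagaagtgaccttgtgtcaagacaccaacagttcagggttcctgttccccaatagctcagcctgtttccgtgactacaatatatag

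Over all listed genes, 31 promoters of 29 genes were in the RefSeq table. CAAAGNNCA was found on either strand in 8 of the 31 (25.8%), against 6.36% of all 32851 promoters of the same length, and the C/EBP motif TTGCNNAA in 10 of 31 (32.3%, against 10.8%). The STAT motif TTCCNGGAA was found in 2, Fga and Pros1 (6.45%, against 1.15%), and the letters TATAAA in 3 (9.68%, against 13.6%). Of these 4 motifs, the F7 window held 1 and the C8b, C8a and F10 windows held none, so none overlapped another in the printed windows. These are letters found in a window, given with no test.

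Signals below are log2 values after background correction and quantile normalization (neqc), and a difference is Ad-Med1 minus Ad-LacZ of the same day on that scale. Before normalization, mean intensities of 925 (day 3) and 968 (day 5) made the Ad-Med1 arrays brighter than those of Ad-LacZ, at 350.2 and 475. Of the 63 listed probes detected on any array, 59 had a higher deposited intensity in Ad-Med1 at day 3 (median ratio 2.12) and 58 at day 5 (median ratio 2.03). "Lower" therefore means lower relative to the rest of the array. With each array scaled to a common median instead, the median difference of all genes was 1.14 at day 3 and 0.91 at day 5. Where that scaling turns the direction of a listed gene's brightest probe, the value is given beside it; further probes and other genes are given by neqc alone.

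Hepatocyte transcripts were present on every array. Ttr, Trf, Apoa1 and Apoa2, which encode abundant plasma carriers, had signals of 15.17 to 15.45, while the only Alb probe was near background at 5.84 to 7.59. In whole liver, fewer hepatocytes and less RNA per hepatocyte cannot be told apart.

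Coagulation and complement genes were lower in Ad-Med1 than in Ad-LacZ livers at day 3 in 26 of 34 by neqc but 15 of 34 with the common median. Of all genes compared at day 3, 51.8% were lower by neqc and 10.4% with the common median. Complement genes had the wider range of differences. At day 3, 7 of 34 genes (20.6%) were at least 2-fold lower: F7, F10 and F11 of coagulation and C6, C8b, C9 and Mbl1 of complement. Cfb alone was at least 2-fold higher (2.94%). With the common median, C8b and C9 were 2-fold lower at day 3, and F5, Pros1, C1s1, Cfb and Mbl2 2-fold higher, against 1.51% lower and 56.7% higher among all genes. By neqc, of all 9059 genes compared at day 3, 12% were at least 2-fold lower and 17.4% at least 2-fold higher. At day 5, Serpinc1 alone was at least 2-fold lower and C6 alone at least 2-fold higher, against 7.71% lower and 10.2% higher among all 9278 genes compared. With the common median, Fga, Kng1 and C8g were 2-fold lower at day 5, and F5, Pros1, C1s1 and C6 2-fold higher, against 2.37% lower and 44.999% higher among all genes. The listed genes are bright: of the 2891 genes at least as bright as the dimmest of them, 6.88% were 2-fold lower and 9.24% higher at day 3.

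Coagulation genes had a median difference of -0.25 at day 3 (0.19 with the common median) and -0.21 at day 5 (-0.38). Complement genes had a median of -0.61 at day 3 (-0.01 with the common median) and -0.04 at day 5 (0.02). All genes had medians of -0.03 and 0.07. Coagulation less complement was 0.36 at day 3 and -0.16 at day 5. It kept these signs over the 8 ways of processing, neqc included, at 0.09 to 0.37 at day 3 and -0.40 to -0.04 at day 5. Of these ways, detection on all 4 arrays cannot move the class medians, as all 34 genes were detected on all 4. Leaving out the detection filter adds only Fgb. Less the median of all genes, both classes were below 0 in each of the 8, coagulation by -0.94 to -0.14 and complement by -1.15 to -0.34 at day 3, and coagulation by -1.29 to -0.16 and complement by -0.89 to -0.04 at day 5. The listed genes are bright, and all genes are an unmatched baseline for brightness. By neqc, the 2891 genes at least as bright as the dimmest listed gene had medians of -0.04 at day 3 and -0.003 at day 5. No such median was taken under the other ways of processing. Members are not replicates, so these medians carry no test.

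**Figure D1:**
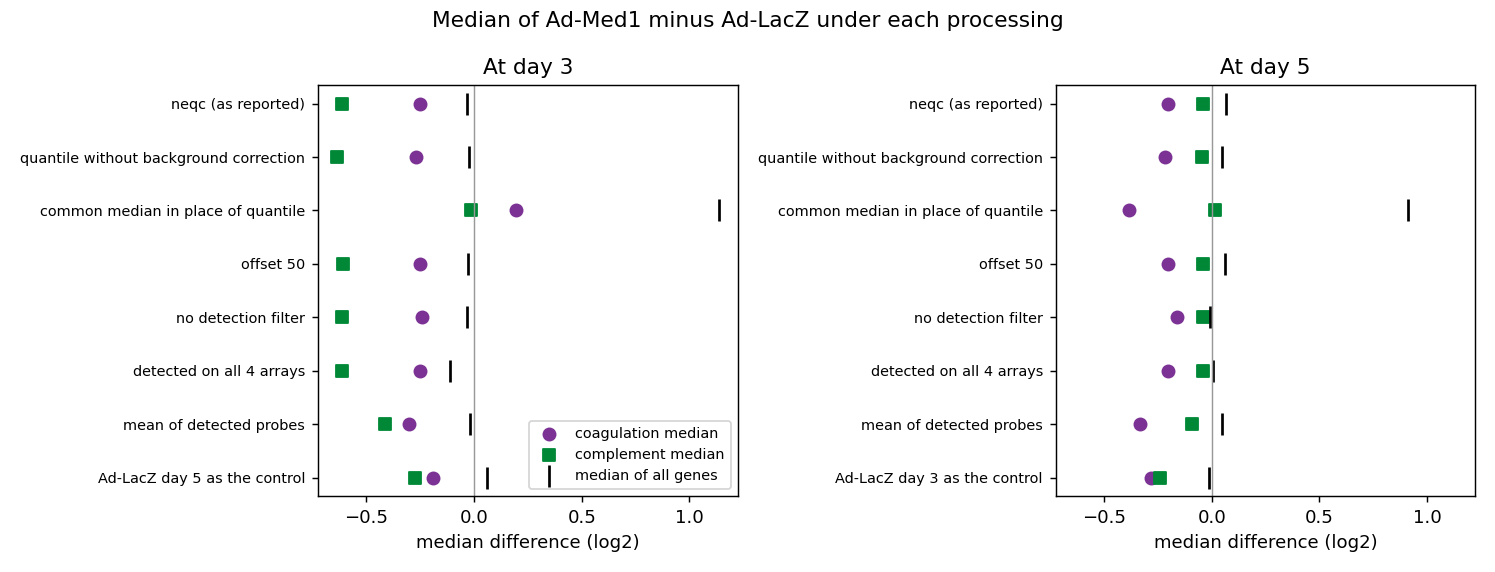
Median difference (log2, Ad-Med1 minus Ad-LacZ) of the 18 coagulation genes (circles), the 16 complement genes (squares) and all genes compared (bars) at day 3 (left) and day 5 (right), with 1 row for each way of processing. Both classes lie left of the bar of all genes in each row, while the common-median row puts the coagulation median above 0 at day 3 (0.19) and the complement median above 0 at day 5 (0.02).

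On both days, 19 of 34 genes were lower in Ad-Med1, 11 of coagulation and 8 of complement, against 32.2% of all genes compared on both days. With the common median 11 of 34 were lower on both days, against 5.21% of all genes, and 28 of 34 were below the median of all genes on both days, against 33.6% of all. The listed genes are bright, and no share among genes of like brightness was taken under that scaling. The part of brightness in these counts was therefore not tested. By neqc and the brightest probe, F5, Pros1, C1s1, C4bp and Mbl2 were higher on both days. With the common median 10 of 34 were. Dimmer detected probes of F5 (-1.02 and -0.73) and C4bp (-0.27 and -0.24) were lower on both days. That of C1s1 was higher (0.84 and 0.40). By neqc, 13 of 18 coagulation genes and 5 of 16 complement genes were within 1.5-fold on both days. Neither count has a both-day share of all genes beside it. Among genes compared at day 3, 26.2% exceeded 1.5-fold upward and 24.5% downward, and at day 5 22.5% and 17.5%. Whether either class was unusually steady or variable was not tested. The spread of a gene over the 4 arrays, highest less lowest, had a median of 0.46 for coagulation (0.11 for Fga to 1.48 for F11) and 0.81 for complement (0.30 for Cfi to 2.42 for C8b).

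The virus effect was also tested over both days with limma, with day as a term. This fit has 1 residual degree of freedom, namely how far the virus effect differed from day to day. Among all 9590 genes, 6.73% had an unadjusted p under 0.05 and were lower in Ad-Med1, and 6.72% were higher. Of the 34 listed genes, 3 had an unadjusted p under 0.05, all lower: F10, F11 and C8b. None passed an adjusted p under 0.05, as none of all genes did (0%), and the smallest adjusted p of a listed gene was 0.367 by limma.

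**Figure D2:**
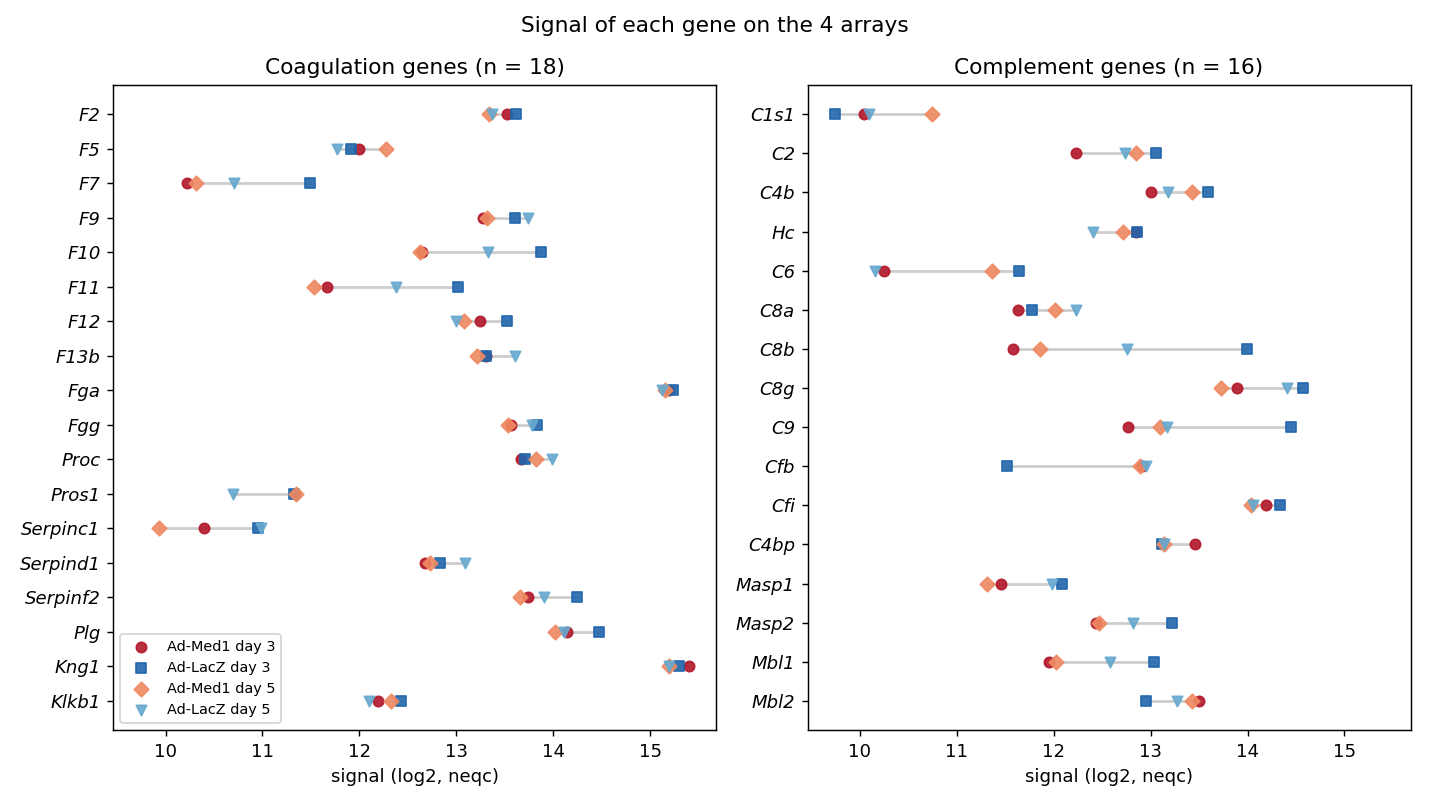
Log2 signal on the 4 arrays of each coagulation gene (left) and complement gene (right), with 1 point per array: Ad-Med1 day 3 (dark red circle), Ad-LacZ day 3 (dark blue square), Ad-Med1 day 5 (orange diamond) and Ad-LacZ day 5 (light blue triangle). The grey line joins the lowest and the highest array, from 0.11 apart in Fga to 2.42 in C8b, where Ad-LacZ day 3 is the highest array.

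Among the vitamin K-dependent factors, F7 and F10 stood apart from the others at day 3. The median of the 6 genes was -0.21 at day 3 and -0.28 at day 5, and 2 of 6 were at least 2-fold lower at day 3. F10 encodes factor X, which activates prothrombin. Its signals were 12.65 (day 3) and 12.62 (day 5) in Ad-Med1 livers, against 13.88 and 13.33 in Ad-LacZ livers. Its differences were -1.23 and -0.71, and the virus effect was -0.97 (SE 0.33, limma adjusted p = 0.370).

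F7 encodes factor VII, which starts clotting with tissue factor. It had signals of 10.22 and 10.32 in Ad-Med1 livers at day 3 and day 5, against 11.49 and 10.71 in Ad-LacZ livers. Its differences were -1.27 and -0.39, though the common median gave 0.51 at day 5, and the virus effect was -0.83 (SE 0.38, limma adjusted p = 0.405). With the common median F7 had -0.13 and F10 -0.75 at day 3, so the likeness of their day 3 differences holds by neqc only.

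The other vitamin K-dependent genes stayed under 2-fold on both days. F2, which encodes prothrombin, differed by -0.09 at day 3 (0.36 with the common median) and -0.03 at day 5. F9, factor IX of the tenase complex, differed by -0.33 (0.16 with the common median) and -0.42, and Proc, the anticoagulant protein C, by -0.04 (0.40 with the common median) and -0.16. Pros1, the cofactor of protein C, had 11.34 and 11.35 in Ad-Med1 livers at day 3 and day 5, against 11.32 and 10.69 in Ad-LacZ livers, so that its day 5 difference of 0.66 lies in the Ad-LacZ array of that day (1.10 and 1.52 with the common median).

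In the contact system, F11 had the largest difference on both days, or Kng1 with the common median (-0.65 and -1.16). F11 encodes factor XI, which activates factor IX. It had 11.67 and 11.53 in Ad-Med1 livers at day 3 and day 5, against 13.02 and 12.38 in Ad-LacZ livers. Its differences were -1.35 and -0.85, and the virus effect was -1.10 (SE 0.33, limma adjusted p = 0.367). Its other 2 probes ran the same way, at -1.08 and -1.04 at day 3 and at -1.08 and -1.93 at day 5.

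Klkb1, the plasma prekallikrein gene next to F11 on chromosome 8, had -0.24 at day 3 (0.60 with the common median) and 0.22 at day 5. F12, factor XII, had 13.25 and 13.08 in Ad-Med1 livers, against 13.53 and 13.001 in Ad-LacZ livers (0.23 at day 3 with the common median). Kng1, which encodes kininogen, had 15.40 and 15.19 in Ad-Med1 livers, against 15.30 and 15.19 in Ad-LacZ livers. Its intensities were 40769 and 39729 in Ad-Med1, against 32947 and 44003 in Ad-LacZ. They lie near the highest of each array (42130 and 44352 in Ad-Med1, against 39145 and 53527 in Ad-LacZ). A difference could therefore be compressed at the top of the scale, which was not tested. A dimmer Kng1 probe, ILMN_2788221, had 13.99 and 14.04 in Ad-Med1 livers, against 14.48 and 14.34 in Ad-LacZ livers (-0.50 and -0.30). The dimmest Kng1 probe, given below, was higher in Ad-Med1 at day 3.

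By neqc, the measured fibrinogen genes differed by at most 1.20-fold between viruses. Fga, the alpha chain, had 15.19 (day 3) and 15.16 (day 5) in Ad-Med1 livers, against 15.24 and 15.12 in Ad-LacZ livers, also near the top of the scale (-0.65 and -1.10 with the common median). Its second probe had 15.08 and 14.84 in Ad-Med1 livers, against 15.14 and 14.98 in Ad-LacZ livers. Fgg, the gamma chain, had 13.56 and 13.53 in Ad-Med1 livers, against 13.83 and 13.78 in Ad-LacZ livers, with differences of -0.26 (0.11 with the common median) and -0.25. The Fgb probe, for the beta chain of the same molecule, had signals of 4.69 to 4.87 and was not detected on any of the 4 arrays on which the probes of the other chains were bright.

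Serpinc1, which encodes antithrombin, had the largest day 5 difference in coagulation by neqc; with the common median that was Pros1 (1.52), and Serpinc1 had -0.20. It had 10.39 and 9.94 in Ad-Med1 livers at day 3 and day 5, against 10.95 and 10.99 in Ad-LacZ livers. Its differences were -0.56 (0.67 with the common median) and -1.05, and the virus effect was -0.80 (SE 0.32, limma adjusted p = 0.379). A dimmer Serpinc1 probe had 8.34 and 8.41 in Ad-Med1 livers, against 6.89 and 8.52 in Ad-LacZ livers, so that it was higher by 1.44 at day 3, where the brighter probe was lower. Serpind1, heparin cofactor II, had -0.15 at day 3 (0.55 with the common median) and -0.37 at day 5.

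The cofactor and transglutaminase genes had brightest probes that differed by at most 1.41-fold. F5, factor V, had 11.997 and 12.27 in Ad-Med1 livers, against 11.91 and 11.77 in Ad-LacZ livers, while its dimmer probe had differences of -1.02 and -0.73. F13b, the carrier chain of factor XIII, had 13.31 and 13.22 in Ad-Med1 livers, against 13.30 and 13.61 in Ad-LacZ livers. In fibrinolysis, Plg, plasminogen, had 14.14 and 14.02 in Ad-Med1 livers, against 14.47 and 14.11 in Ad-LacZ livers. Serpinf2, the plasmin inhibitor alpha 2-antiplasmin, differed by -0.50 and -0.25.

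In complement, the terminal pathway varied most. All 6 measured genes were below 0 at day 3 (median -1.04) with 3 at least 2-fold lower, and 4 of 6 were below 0 at day 5 (median -0.14); with the common median C8a and Hc were above 0 on both days. C8b, the beta chain of C8, had 11.58 (day 3) and 11.86 (day 5) in Ad-Med1 livers, against 14.00 and 12.76 in Ad-LacZ livers. Its differences were -2.42 (5.34-fold lower) and -0.89 (1.86-fold lower), and the virus effect was -1.66 (SE 0.50, limma adjusted p = 0.367). C8b was lower at day 3 in the deposited intensities as well, with 4789 in Ad-Med1, against 8870 in Ad-LacZ, on an array that was brighter as a whole.

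C8a, the alpha chain gene beside C8b, had 11.63 and 12.02 in Ad-Med1 livers, against 11.78 and 12.24 in Ad-LacZ livers, with differences of -0.15 and -0.22 (0.83 and 0.24 with the common median). C8g, the gamma chain, had 13.89 and 13.72 in Ad-Med1 livers, against 14.57 and 14.41 in Ad-LacZ livers, a difference of -0.68 on each day. By neqc the 3 chains of C8 were apart most in C8b and least in C8a at day 3; with the common median C8b had -1.87, C8g -0.48 and C8a 0.83.

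C9, whose protein forms the wall of the pore, had 12.77 and 13.10 in Ad-Med1 livers at day 3 and day 5, against 14.44 and 13.17 in Ad-LacZ livers. The Ad-LacZ day 3 array was high and the other 3 lay within 0.41 of each other. Its difference was -1.68 at day 3 and -0.07 at day 5. The other C9 probes went against this at day 3: ILMN_2937379 had 12.29 in Ad-Med1, against 12.18 in Ad-LacZ, and ILMN_2594846 was at least 1.67-fold higher in Ad-Med1, being not detected on the Ad-LacZ day 3 array. Hc, which encodes C5, had -0.01 at day 3 (0.66 with the common median) and 0.32 at day 5.

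C6, which joins C5b to begin the pore, ran in opposite directions on the 2 days. It had 10.25 (day 3) and 11.37 (day 5) in Ad-Med1 livers, against 11.65 and 10.15 in Ad-LacZ livers. Its difference was -1.39 at day 3 and 1.22 at day 5, and its second probe gave -1.34 and 1.62. The arrays high in C6, Ad-LacZ day 3 and Ad-Med1 day 5, were those on which Eif2s3y, a Y-linked gene, was detected, at 10.54 in Ad-Med1 at day 5 and 9.52 in Ad-LacZ at day 3. On the other arrays Eif2s3y was not detected, at 4.64 in Ad-Med1 at day 3 and 4.65 in Ad-LacZ at day 5. Detection of the other measured Y-linked genes did not split the arrays in this way. Uty had 6.32 and 6.93 in Ad-Med1 at day 3 and day 5, against 7.39 and 5.25 (not detected) in Ad-LacZ. Kdm5d had 4.78 and 7.23 in Ad-Med1, against 6.40 and 5.35 in Ad-LacZ, and was detected on Ad-Med1 day 5 only.

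Xist, which is expressed from the inactive X, had 11.17 and 9.51 in Ad-Med1 at day 3 and day 5, against 5.31 (not detected) and 8.15 in Ad-LacZ. In mice, terminal complement components are known to be lower in females. By these transcripts the arrays of each day differ in sex-linked RNA as well as in virus. At a day, the virus and the sex of the animals therefore cannot be told apart for any gene here, C6, C8b and C9 among them. Within each virus, C8b and C9 too were higher on the array with Eif2s3y detected. C8b had 11.86 against 11.58 in Ad-Med1 (day 5 against day 3) and 14.00 against 12.76 in Ad-LacZ (day 3 against day 5). C9 had 13.10 against 12.77 in Ad-Med1 and 14.44 against 13.17 in Ad-LacZ. The other terminal genes were higher on it in 1 virus only. C8g and Hc were lower on it in Ad-Med1 (13.72 against 13.89 and 12.72 against 12.85). C8a was lower on it in Ad-LacZ (11.78 against 12.24). Outside the terminal pathway, some genes, such as C2 and C4b, were higher on it in both viruses, and others, such as Cfb, were not. The day differs between those arrays as well, so day and sex-linked RNA cannot be told apart there.

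**Figure D3:**
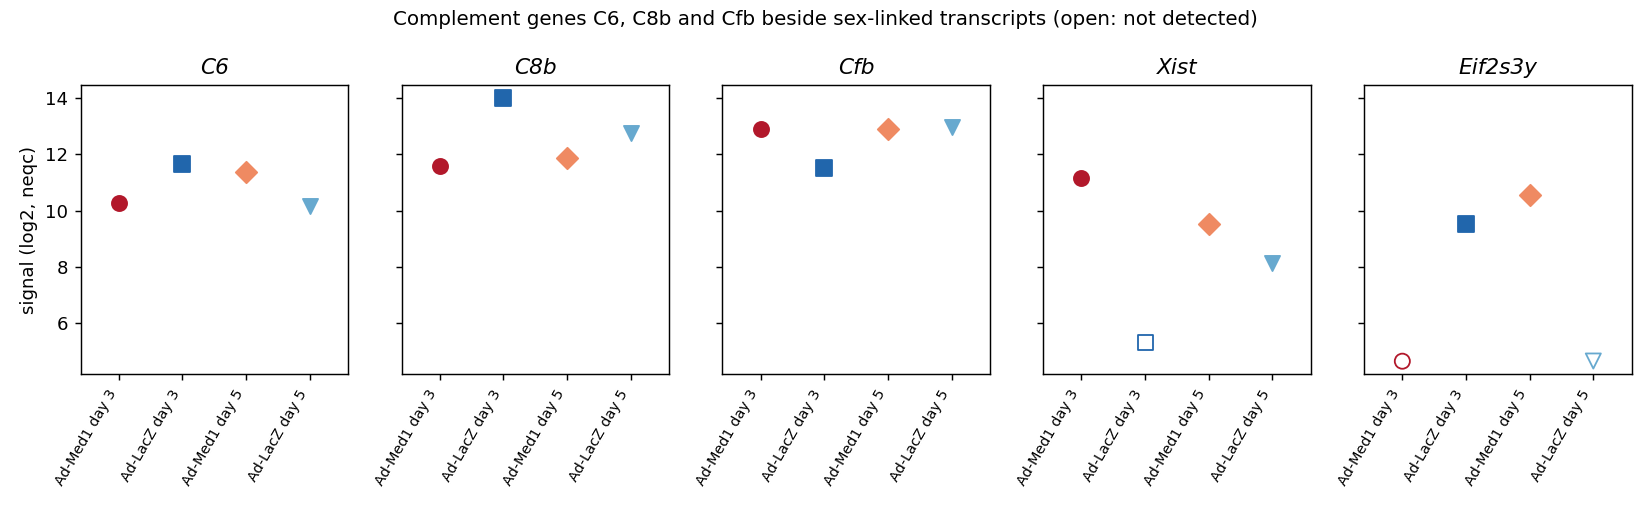
Log2 signal of C6, C8b and Cfb beside the sex-linked transcripts Xist and Eif2s3y, with 1 point per array in the order Ad-Med1 day 3, Ad-LacZ day 3, Ad-Med1 day 5, Ad-LacZ day 5; an open point was not detected. C6 is high on the 2 arrays with Eif2s3y detected (11.65 and 11.37) and low on the others (10.25 and 10.15), whereas C8b is high and Cfb low on Ad-LacZ day 3.

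Cfb, factor B of the alternative pathway and an acute phase gene, was the only listed gene 2-fold higher at day 3. It had 12.91 (day 3) and 12.89 (day 5) in Ad-Med1 livers, against 11.52 and 12.95 in Ad-LacZ livers. The Ad-LacZ day 3 array was the low one and the other 3 lay within 0.06 of each other, so that its difference was 1.39 at day 3 and -0.06 at day 5 (0.02 with the common median). C2, the paralog of Cfb that lies next to it on chromosome 17 and serves the classical and lectin pathways, had 12.23 and 12.85 in Ad-Med1 livers, against 13.06 and 12.73 in Ad-LacZ livers, with differences of -0.83 and 0.12.

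The genes that start the lectin and classical pathways had a median of -0.63 at day 3 and 0.12 at day 5. Mbl1, a mannose-binding lectin, had 11.95 and 12.03 in Ad-Med1 livers at day 3 and day 5, against 13.03 and 12.58 in Ad-LacZ livers. Its differences were -1.09 and -0.56, and the virus effect was -0.82 (SE 0.33, limma adjusted p = 0.377). Mbl2, the other mannose-binding lectin, ran the other way, with 13.50 and 13.42 in Ad-Med1 livers, against 12.95 and 13.27 in Ad-LacZ livers.

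The lectin-bound proteases Masp1 and Masp2 were both lower by their brightest probes. Masp1 had 11.45 and 11.31 in Ad-Med1 livers, against 12.09 and 11.98 in Ad-LacZ livers (0.32 at day 3 with the common median). Masp2 had 12.44 and 12.46 in Ad-Med1 livers, against 13.23 and 12.82 in Ad-LacZ livers. C4b, which both pathways cleave, had 13.01 and 13.43 in Ad-Med1 livers, against 13.60 and 13.18 in Ad-LacZ livers. C1s1, the protease of C1, had 10.04 and 10.74 in Ad-Med1 livers, against 9.74 and 10.09 in Ad-LacZ livers, and both of its probes were higher in Ad-Med1 on both days.

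The fluid-phase inhibitors differed least in complement. Cfi, the protease that cuts C3b and C4b, differed by -0.15 (0.04 with the common median) and -0.02. C4bp, its cofactor for C4b, had 13.45 and 13.14 in Ad-Med1 livers, against 13.12 and 13.13 in Ad-LacZ livers.

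**Figure D4:**
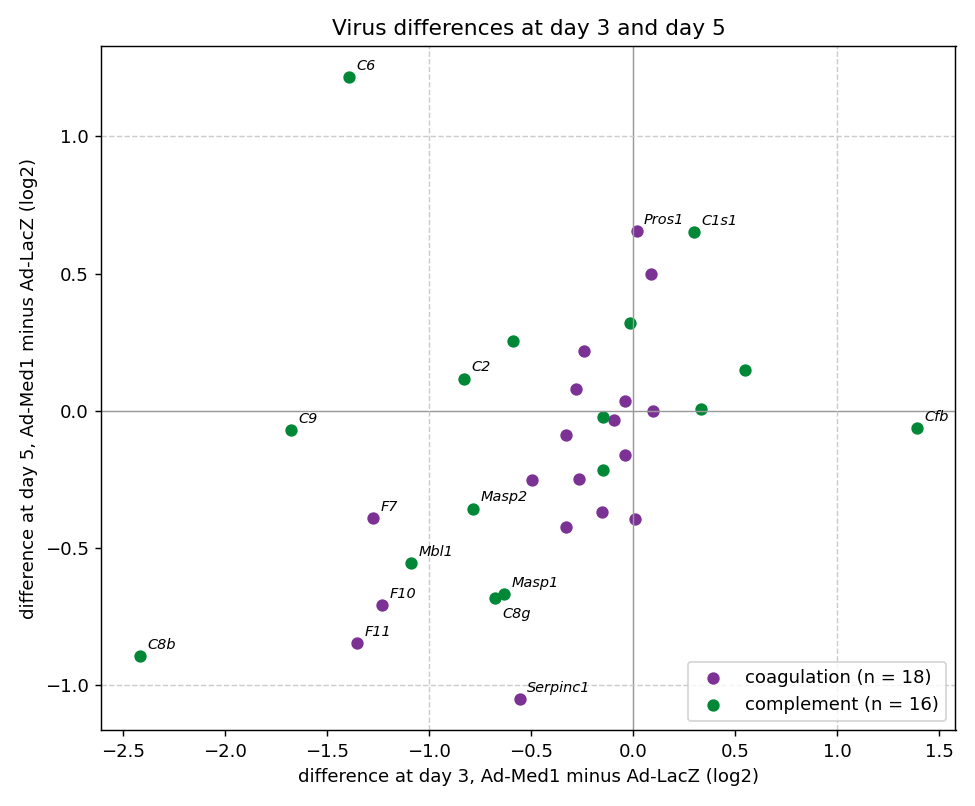
Difference between Ad-Med1 and Ad-LacZ (log2) at day 3 (horizontal) and day 5 (vertical) for each coagulation (purple) and complement (green) gene; dashed lines mark 2-fold, and genes over 0.6 apart at a day are named. Most coagulation genes lie near the centre with F7, F10, F11 and Serpinc1 lower left. Past 2-fold at day 3 lie F7, F10 and F11 of coagulation and C6, C8b, C9, Mbl1 and Cfb of complement.

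Day 3 and day 5 were also compared within each virus, with 1 array on each side. In Ad-Med1, day 5 against day 3, C6 alone was at least 2-fold higher (by 1.11) and no listed gene was 2-fold lower, against 5.05% higher and 2.92% lower among all genes. In Ad-LacZ, Cfb was 2-fold higher at day 5 (by 1.44), and C6 (-1.49), C8b (-1.24) and C9 (-1.27) were 2-fold lower, against 12.1% higher and 6.49% lower among all genes. No coagulation gene reached 2-fold between days in either virus.

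For C8b, C9 and Cfb, 3 of 34 genes, Ad-LacZ at day 3 lay at least 2-fold beyond the other 3 arrays, as it did for 10.5% of all genes. Several day 3 differences rest on this array. With Ad-LacZ day 5 as the control for Ad-Med1 day 3, C8b alone was still 2-fold lower, and C6 (0.10) and Cfb (-0.04) changed sign. By probe, the same array was at least 2-fold below all others for Serpinc1, Kng1, C9 and Cfb probes (6.35%, against 9.13% of all 16767 detected probes). It was at least 2-fold above all others for C8b, C9 and Masp1 probes (4.76%, against 2.91%).

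Of the 18 genes with several detected probes, 9 had probes that differed in opposite directions at day 3 and 8 at day 5, against 42.1% and 39.7% of the 3430 genes of the array with several. Plg and C9 had probes at least 2-fold apart in opposite directions at day 3, against 3.76% of all. For Plg, ILMN_2593515 had 11.47 in Ad-Med1, against 10.38 in Ad-LacZ, while ILMN_2561360 was at least 6.09-fold lower at day 3 and at least 3.66-fold lower at day 5 in Ad-Med1, where it was not detected. For Masp1, ILMN_2660969 had 8.46 (day 3) and 9.71 (day 5) in Ad-Med1, against 11.87 and 9.56 in Ad-LacZ. Kng1 probe ILMN_1225218 was at least 2.58-fold higher in Ad-Med1 at day 3, being not detected on Ad-LacZ day 3, with a difference of -0.61 at day 5.

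Dimmer probes of F12 and C4b also departed from the brightest. F12 probe ILMN_2605656 had -1.10 at day 3 and -0.64 at day 5 where the brightest had -0.28 and 0.08. The other dimmer F12 probe, ILMN_2938668, went the other way, with 0.16 and 0.26. Both dimmer C4b probes were lower on both days, at -1.19 and -0.62 and at -1.15 and -0.69, where the brightest had -0.59 and 0.25. Mouse C4b has a near-identical paralog, C4a, so the C4b probes may share signal with it. Proc probe ILMN_3109675 had -1.25 and -0.68, and both dimmer Serpinf2 probes were over 2-fold lower at day 3 (-1.17 and -1.21). C4bp had a second detected probe at -0.27 and -0.24, and F13b a second one at -0.39 and 0.00. Of the Masp2 probes, ILMN_3027989 had -1.98 and -1.14 and ILMN_1260242 had -0.49 and 0.06.

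**Figure D5:**
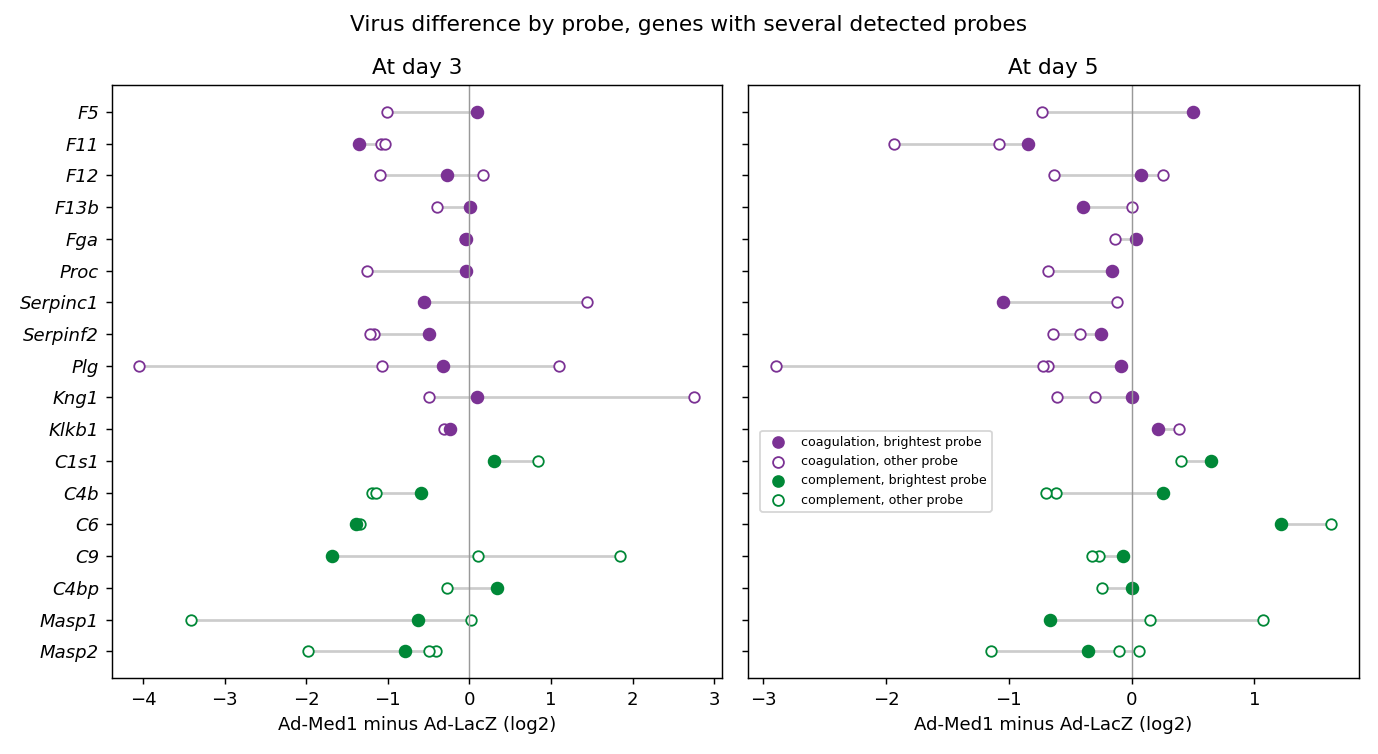
Difference between Ad-Med1 and Ad-LacZ (log2) of each detected probe of the 18 genes with several, at day 3 (left) and day 5 (right); filled points are the brightest probe and open points the others, purple for coagulation and green for complement. The probes of F11 lie on 1 side of 0 on both days and the C6 probes lie together, while those of Plg, Kng1, C9 and Masp1 spread widely at day 3.

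Other genes of both systems were taken from wider lists. Of 30 further coagulation genes, 19 were measured at day 3. Of these, 1 was at least 2-fold higher (against 17.4% of all genes) and 2 lower (against 12%). At day 5, 20 were measured, with none higher (against 10.2%) and 6 lower (against 7.71%). Vwf, the endothelial carrier of factor VIII, had 6.98 and 6.41 in Ad-Med1 livers, against 8.55 and 7.97 in Ad-LacZ livers. Habp2, a plasma protease that activates factor VII, had 11.74 and 10.98 in Ad-Med1 livers, against 12.996 and 12.47 in Ad-LacZ livers. S100a10, a plasminogen receptor subunit, had 11.35 and 10.45 in Ad-Med1 livers, against 9.54 and 11.96 in Ad-LacZ livers. Hrg, histidine-rich glycoprotein, differed by 0.63 at day 3 and -1.18 at day 5.

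Of 37 further complement genes, 20 were measured at day 3. Of these, 2 were at least 2-fold higher (against 17.4% of all genes) and 6 lower (against 12%). At day 5, 21 were measured, with 1 higher (against 10.2%) and 2 lower (against 7.71%). Those lower at day 3 include C1qa, C1qb and C1qc (-2.38, -2.22 and -1.84), the chains of C1q, and Vsig4, a C3b receptor of Kupffer cells, which had 5.78 in Ad-Med1 (not detected), against 12.19 in Ad-LacZ. These are macrophage genes: of 9 detected macrophage and Kupffer markers, 7 were 2-fold lower at day 3 (median -2.19), while at day 5 none was lower and Marco and C1qc were 2-fold higher (median 0.75), with all 9 detected on the Ad-LacZ day 3 array and 5 on the Ad-Med1 day 3 array. Their summed intensity was 4772 and 18261 in Ad-Med1 at day 3 and day 5, against 6089 and 3418 in Ad-LacZ. Hepatocyte genes such as C8b lie outside this list, and the part of the macrophage difference in the results for listed genes was not tested. Other cell types differed too, and their part was likewise not tested. At day 5, 4 of 4 measured T cell markers were 2-fold higher (median 1.95). The platelet genes Pf4 and Ppbp were at least 5.18-fold and 2.93-fold higher at day 3, being not detected on Ad-LacZ day 3. At day 5 Pf4 had -1.20 and Ppbp -0.18. The 5 endothelial markers had medians of -0.78 at day 3 and -0.53 at day 5. Cfhr2, a factor H-related gene, had 10.49 in Ad-Med1, against 8.04 in Ad-LacZ at day 3, and Colec10, a collectin that binds Masp proteases, had 7.74 and 6.90 in Ad-Med1 at day 3 and day 5, against 5.22 (not detected) and 8.62 in Ad-LacZ.

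Of the liver transcription factors and cytokine signalling genes, 15 were measured. Il6ra, the interleukin 6 receptor, had 8.94 and 9.08 in Ad-Med1 livers at day 3 and day 5, against 11.51 and 9.39 in Ad-LacZ livers, again with Ad-LacZ day 3 as the high array. Cebpb, which binds acute phase promoters, had 13.62 and 13.88 in Ad-Med1, against 13.38 and 12.23 in Ad-LacZ. Nr5a2, a nuclear receptor of hepatocytes, had 8.53 and 8.65 in Ad-Med1, against 9.75 and 9.58 in Ad-LacZ. Hnf4a differed by 0.85 and 0.24.

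Of 17 measured acute phase genes, 4 were 2-fold higher on each day and none was lower. Among all genes, 17.4% were 2-fold higher and 12% lower at day 3, and 10.2% and 7.71% at day 5. Saa3, a serum amyloid A, had 13.74 and 13.95 in Ad-Med1, against 9.57 and 10.40 in Ad-LacZ, and Orm2, an orosomucoid, had 14.03 and 12.97, against 11.60 and 12.27. Saa1 had 14.50 and 14.19 in Ad-Med1, against 14.69 and 10.93 in Ad-LacZ. Of the listed genes that are also acute phase genes, Fga and Fgg stayed under 2-fold on both days by neqc, and Cfb was 2-fold higher at day 3. With the common median Fga had -1.10 at day 5, and its signal lies near the top of the scale. Of the 6 neutrophil markers, S100a8 and S100a9, detected on all arrays, were higher by 1.95 and 2.56 at day 3 and by 2.24 and 2.50 at day 5. The other 4 were not detected on Ad-LacZ at day 3, where Retnlg was at least 1.14-fold and Camp at least 1.18-fold higher in Ad-Med1. The part of these cells in the differences was not tested.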

How the data were processed

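Total RNA was labelled with biotin and hybridised to Illumina mouse arrays, 1 array per group, per the labels' protocols. The deposited table, not normalized per the file headers, gives a linear probe intensity and a detection p-value for each of 45281 probes. The authors' series values equalled these intensities, with a largest difference of 0. The scanner software is not named in the labels. Intensities were then corrected and quantile normalized by neqc (limma 3.58.1, R 4.3.3; normexp from the detection p-values, offset 16, log2). Detected means a detection p under 0.01, and a gene took its detected probe with the highest mean signal. Where the dimmer side was not detected, a fold is a lower bound against the lowest detected signal of that array or the probe's own, whichever was higher. Symbols came from the platform annotation, updated through the gene identifier for 34807 of 34885 probes with 1 symbol; 18 probes had several and 10378 none.

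With 1 array per group, genes were called at 2-fold with no test. The virus effect was tested on all 4 arrays with limma (lmFit, eBayes, day as a term) and Benjamini-Hochberg adjustment over 9590 genes. Its p-values set the effect against a variance that eBayes draws from the gene's own difference between days and from all genes. The part from all genes weighs more, with 2.69 degrees of freedom against 1. The difference between days may be technical. The code was tested on simulated data. The SE comes from the same fit. Listed genes had full values where 2-fold apart at a day, where probes disagreed, for fibrinogen and where a neighbour was compared; the last were chosen after the values were seen. The members and all lists were chosen with earlier results of these data known. Alternatives changed the background correction, scaling, offset, detection filter, probe rule, fold, control array and day term. Tables used Python 3.11.15, numpy 2.4.6, pandas 2.3.3 and matplotlib 3.10.9.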

Additional observations from a re-analysis of the deposited data

Results flagged for a closer look

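C6 differed between Ad-Med1 and Ad-LacZ in opposite directions at day 3 (-1.39) and day 5 (1.22), so that the day 5 difference less the day 3 difference was 2.61 on the log2 scale. With 1 array per group this difference was not tested. Both C6 probes showed it, and the arrays high in C6 were those with Eif2s3y detected, at 10.54 in Ad-Med1 day 5 and 9.52 in Ad-LacZ day 3.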

How the results depend on the processing

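Without background correction, with an offset of 50, without a detection filter and with detection on all 4 arrays, the counts, the class medians and the 2-fold calls of the 9 genes kept their direction and their side of the threshold. Detection on all 4 arrays could not change them, as every measured listed gene was detected on all 4, and leaving out the filter adds only Fgb. Scaling to a common median moved the day 3 medians to 0.19 for coagulation and -0.013 for complement, and gave 7 genes at least 2-fold apart at day 5 (2 as reported). It left C8b and C9 2-fold lower at day 3, and by limma called 1 listed gene, C1s1 (adjusted p = 0.047), with 18.3% of all genes called. A fold of 1.5 gave 13 genes at day 3 (8 as reported) and 9 at day 5. With Ad-LacZ day 5 as the control, 1 gene was 2-fold apart at day 3, the complement median was -0.28, C6 turned to 0.10 and Cfb to -0.045. With Ad-LacZ day 3 as the control, 8 genes were 2-fold apart at day 5 and C6 turned to -0.28. The mean of the detected probes turned C9 to 0.092 at day 3, and left Serpinc1 at -0.58 at day 5, under 2-fold. Leaving out each array in turn, which also dropped the day term, gave 0 to 1 listed genes past the adjusted threshold; the 1 was C8b without the Ad-LacZ day 5 array (adjusted p = 0.045), where 412 of all genes passed. Each such fit has 1 virus with a lone array, assumed to vary like the other. Causes were not tested. No paired analysis was possible because each group has 1 array. Day was a term in the fit, and without it the count of listed genes past the adjusted threshold stayed at 0.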
